A study of Homo sapiens with 4 samples.

Results

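Tropomyosins and the non-muscle myosin II machinery were followed as 10 genes, out of 35993 in the expression table, of which 16599 averaged 10 counts or more per library and were kept. The genes are the tropomyosins TPM1, TPM2, TPM3 and TPM4, the myosin light chain kinase MYLK, the regulatory light chains MYL9, MYL12A and MYL12B, and the non-muscle myosin heavy chains MYH9 and MYH10. They were chosen by name, with the measured values of all the comparisons described here already known, so their differences are given as a description without a test. All 10 passed the filter, with 759 to 60342 counts per library.

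The measurements came from MDA-MB-231, an established human breast cancer cell line of the triple-negative type. Total RNA from 4 cultures was sequenced. The conditions were CTGF siRNA with kahweol (siCTGF+kahweol), CTGF siRNA alone (siCTGF), control siRNA with kahweol (siControl+kahweol) and control siRNA alone (siControl, siCNT in the labels), with 1 library per condition. Kahweol, a diterpene of coffee, was given at 50 µM for 48 h in medium without serum. The labels call the remaining cells untreated, and whether these received a vehicle is not given in the sources used here. The study asked how lowering CTGF, a secreted matricellular protein encoded by CCN2, and how kahweol act on the motility of these cells.

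Actin and non-muscle myosin II form the contractile bundles with which a cell pulls on its surroundings. Tropomyosins are coiled-coil dimers that polymerize along both sides of actin filaments and set which motors and severing proteins can bind there. Myosin II is a hexamer with a pair each of heavy chains, essential light chains and regulatory light chains. Phosphorylation of the regulatory light chain, by MYLK with calcium and calmodulin or by other kinases, switches the motor on, and myosin phosphatase switches it off. RNA-Seq reads the transcripts of these proteins and neither their amount nor the phosphorylation.

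The residues on which this switch turns are shared by the light chains. In these coding sequences, taken from GENCODE 29 transcripts (GRCh38) in the longest reading frame, the capitals mark the adjacent threonine and serine codons that MYLK phosphorylates.
MYL9: ccacagcgggccACATCCaatgtcttcgca
MYL12A: cctcagcgtgcaACATCCaatgtgtttgct
MYL12B: cctcagcgtgcaACATCCaatgtgtttgcc
These are codons 19 and 20 of MYL9 and MYL12B, and codons 24 and 25 of MYL12A in its longest frame. MYL12A and MYL12B, which are neighbours on chromosome 18, were 92% identical over their aligned coding bases. MYL9 was 77.5% identical to MYL12A and 80.8% identical to MYL12B. No stretch of 100 bases was shared between the transcripts of these light chains and those of any other gene. For TPM4 1.58% of such stretches were shared with another gene, for TPM3 0.621% and for MYLK 0.0703%, the last with the pseudogene MYLKP1. Reads of that length that fit more than 1 of these genes would thus be few in this annotation.

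In the files (GRCh37), TPM1 (gene ID 7168) lay on chromosome 15 at 63334946 to 63364114, TPM2 (7169) on chromosome 9 at 35681990 to 35690053, TPM3 (7170) on chromosome 1 at 154127780 to 154164576 and TPM4 (7171) on chromosome 19 at 16178348 to 16213812. MYLK (4638) spanned 123328896 to 123603179 on chromosome 3. MYL9 (10398) lay on chromosome 20 at 35169922 to 35179850, and MYL12A (10627) and MYL12B (103910) on chromosome 18 at 3247480 to 3256235 and 3262111 to 3278282. MYH9 (4627) lay on chromosome 22 at 36677323 to 36784112 and MYH10 (4628) on chromosome 17 at 8377523 to 8534079. Opposite-strand genes overlap some of them, and the strand setting of the counting is not stated. The counts of DLGAP4-AS1 came to 4.23% of those of MYL9, and the counts of MYLK-AS1 to 1.18% of those of MYLK.

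Total counts per library were 44781516 to 59129784. CCN2 was lower in siCTGF cells, with a log2 fold change of -2.55 under kahweol and -1.32 in untreated cells, as the siRNA labels state. VIM, the mesenchymal intermediate filament gene, was at 2549 to 3255 CPM (counts relative to the library total, scaled by TMM). Of the other basal and mesenchymal markers listed, AXL was at 544 to 994 CPM and CD44 at 265 to 356 CPM. CAV1 was at 142.5 to 327 CPM and the keratin gene KRT18 at 324 to 408 CPM. SPARC, from the same list, was far lower, at 7.75 to 33.8 CPM. The estrogen receptor gene ESR1 was at 0.10 CPM or less. Of the other luminal markers, PGR, GATA3 and FOXA1 were at 2.55 CPM or less, with FOXA1 higher in both kahweol libraries. CDH1 was at 6.62 to 10.4 CPM, EPCAM at 21.7 to 29.5 CPM and ERBB2 at 52.6 to 74.8 CPM. The part of these genes in the results was not tested. Of 8 smooth muscle markers, SMTN was at 136 to 154 CPM, and the other 7, among them the defining genes ACTA2 and MYH11, were at 0.88 CPM or less in every library. TAGLN, a gene of smooth muscle and stress fibres that was listed with the thin filament partners, was at 9.47 to 13.5 CPM.

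TPM4, which encodes a short tropomyosin of the non-muscle cytoskeleton, was the only one of the 10 genes over a fold of 1.3 in siCTGF cells. Its level was 504 CPM in siCTGF+kahweol, 793 CPM in siCTGF, 195 CPM in siControl+kahweol and 305 CPM in siControl. Both siCTGF libraries were above both siControl libraries, and within each siRNA the kahweol library was the lower one. The siCTGF level was 2.58-fold that of siControl under kahweol and 2.60-fold in untreated cells. The difference between the log2 fold changes with and without kahweol was -0.01 (95% counting interval -0.07 to 0.05), so the interval covers 0. In RNA of whole cultures, a level per cell and the share of cells that carry the transcript cannot be told apart. Among the 16599 genes, TPM4 ranked 408th from the highest under kahweol and 160th in untreated cells. With kahweol its fold was 0.635 in siCTGF cells and 0.641 in siControl cells. Cells with both siCTGF and kahweol stayed above siControl cells by 0.72 on the log2 scale.

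The other tropomyosins stayed inside the fold thresholds with siCTGF. TPM1, a stress fibre tropomyosin gene, was at 58.3 CPM in siCTGF+kahweol, 122 CPM in siCTGF, 55.6 CPM in siControl+kahweol and 123 CPM in siControl. The kahweol libraries lay together at the low level and the untreated ones together at the high level, whichever siRNA had been used. Its log2 fold change with siCTGF was 0.07 (-0.04 to 0.18) under kahweol and -0.01 (-0.08 to 0.06) in untreated cells, both intervals covering 0. With kahweol it was -1.07 (-1.16 to -0.98) in siCTGF cells and -1.15 (-1.25 to -1.06) in siControl cells. TPM2, best known as the beta tropomyosin of muscle, showed the same layout at a lower level. It was at 22.4 CPM in siCTGF+kahweol, 40.1 CPM in siCTGF, 22.5 CPM in siControl+kahweol and 39.8 CPM in siControl. Kahweol libraries held 0.558 of the untreated level with siCTGF and 0.565 with siControl.

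TPM3, the gene of the gamma tropomyosins, was the steadiest of the 4. It was at 483 CPM in siCTGF+kahweol, 556 CPM in siCTGF, 503 CPM in siControl+kahweol and 536 CPM in siControl. Its log2 fold change with kahweol was -0.20 (-0.24 to -0.17) in siCTGF cells and -0.09 (-0.13 to -0.06) in siControl cells, inside the fold thresholds in both. With siCTGF it was -0.06 under kahweol and 0.05 in untreated cells. These 2 differ by -0.11 (-0.16 to -0.06), more than counting error, whereas the spread between cultures was not measured.

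MYLK, the kinase that phosphorylates the regulatory light chains, was the lowest of the 10 genes relative to siControl in every other condition. It was at 21.0 CPM in siCTGF+kahweol, 84.6 CPM in siCTGF, 35.2 CPM in siControl+kahweol and 132 CPM in siControl. The 4 libraries stood in one order, with siControl at the top, siCTGF next, then siControl+kahweol and siCTGF+kahweol at the bottom. The siCTGF level was 1.68-fold lower under kahweol and 1.56-fold lower in untreated cells. Kahweol went with a level 4.03-fold lower in siCTGF cells and 3.75-fold lower in siControl cells, where the log2 fold changes were -2.01 (-2.16 to -1.87) and -1.91 (-2.02 to -1.80). The log2 difference of siCTGF+kahweol from siControl was -2.65. The siCTGF effects with and without kahweol differed by -0.10 (-0.29 to 0.08), an interval that covers 0. On log2(FPKM + 1), centred on the median of all genes, the siCTGF value under kahweol was -0.50, short of the threshold. The FPKM were 1.91 in siCTGF+kahweol and 3.23 in siControl+kahweol, and adding 1 to such small values shrinks the fold.

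**Figure D1:**
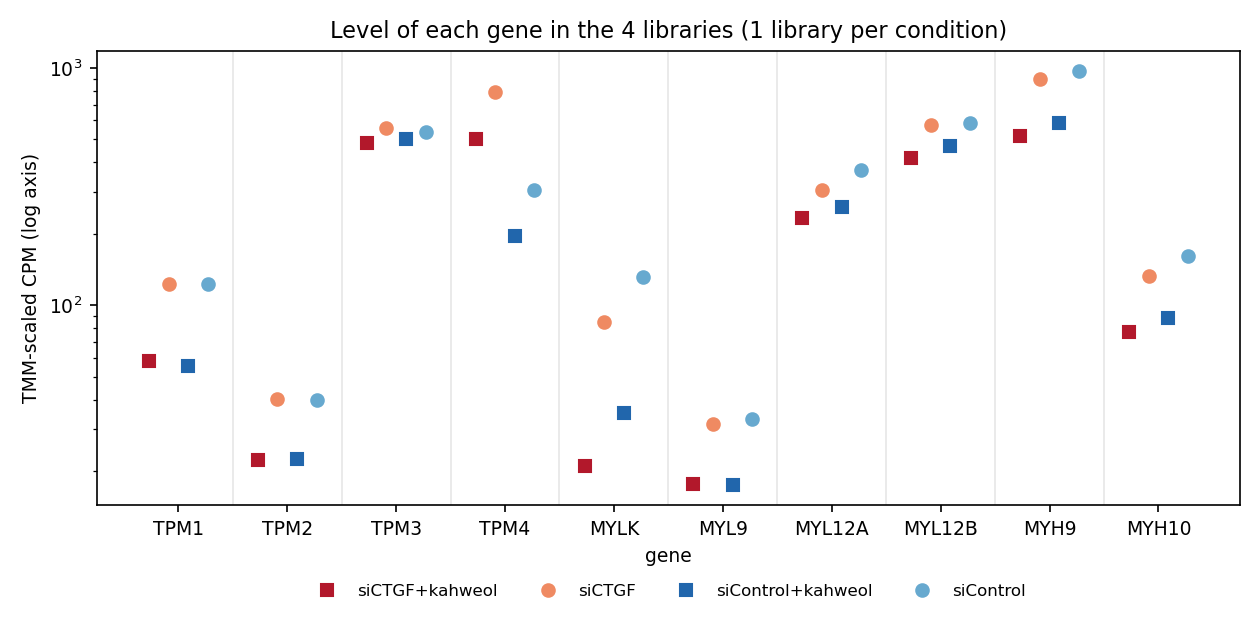
Level of each of the 10 genes in the 4 libraries, as TMM-scaled CPM on a log axis (1 library per condition, no error bar). Squares are kahweol libraries and circles untreated ones, red and orange are siCTGF and the blues siControl. TPM4 is the gene whose red and orange points lie far above the blue ones, and MYLK has the widest spread, at 21.0 to 132 CPM. CPM is not corrected for gene length, so heights are compared within a gene.

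The substrates of MYLK differed less between the libraries than the kinase. MYL12A, one of the ubiquitous regulatory light chains, was at 234 CPM in siCTGF+kahweol, 307 CPM in siCTGF, 260 CPM in siControl+kahweol and 370 CPM in siControl. Its neighbour MYL12B was at 416 CPM in siCTGF+kahweol, 577 CPM in siCTGF, 469 CPM in siControl+kahweol and 585 CPM in siControl. Both were lower in the kahweol libraries, and neither passed a threshold. MYL12A was at a fold of 0.763 with kahweol in siCTGF cells and, just short of the limit of 0.7, at 0.703 in siControl cells. MYL12B was at 0.722 in siCTGF cells and 0.802 in siControl cells. The siCTGF effects of the neighbours differed with kahweol in opposite directions. The siCTGF effect with kahweol minus that without was 0.12 (0.05 to 0.19) for MYL12A and -0.15 (-0.20 to -0.10) for MYL12B on the log2 scale. Both intervals leave out 0 and cover counting error alone.

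MYL9, the regulatory light chain of smooth muscle and of stress fibres, was at 17.6 CPM in siCTGF+kahweol, 31.6 CPM in siCTGF, 17.6 CPM in siControl+kahweol and 33.2 CPM in siControl. Like TPM1 and TPM2, it had a kahweol level and an untreated level and hardly differed between the siRNAs. Its fold with kahweol was 0.557 in siCTGF cells and 0.531 in siControl cells. With siCTGF the log2 fold change was 0.00 (-0.21 to 0.21) under kahweol and -0.07 (-0.20 to 0.06) in untreated cells. With 759 to 2072 counts, MYL9 was the least counted of the 10 genes, and its intervals are the widest.

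The heavy chains carry the motor domain and the tail that packs into filaments. MYH9, the heavy chain of non-muscle myosin IIA, was at 517 CPM in siCTGF+kahweol, 900 CPM in siCTGF, 586 CPM in siControl+kahweol and 966 CPM in siControl. MYH10, the heavy chain of myosin IIB, was at 76.8 CPM in siCTGF+kahweol, 133 CPM in siCTGF, 88.5 CPM in siControl+kahweol and 161 CPM in siControl. Both were ordered the same way across the libraries, with siControl highest and siCTGF+kahweol lowest. The fold of MYH9 with kahweol was 0.575 in siCTGF cells and 0.607 in siControl cells. For MYH10 it was 0.579 in siCTGF cells and 0.550 in siControl cells. With siCTGF the log2 fold changes of MYH9 were -0.18 (-0.22 to -0.14) under kahweol and -0.10 (-0.13 to -0.08) in untreated cells. Those of MYH10 were -0.20 (-0.30 to -0.11) and -0.28 (-0.34 to -0.22) in the same cells, and all 4 values were inside the fold thresholds.

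In the comparison of siCTGF with siControl, 1 of the 10 genes (TPM4) was over a fold of 1.3 and 1 (MYLK) under 0.7, both with and without kahweol. Of all 16599 genes, 14.7% were over and 7.83% under in kahweol-treated cells, and 9.63% were over and 8.99% under in untreated ones. In both comparisons together 3.25% were over and 2.24% under. At 1.5-fold either way, 1461 were over and 1083 under in kahweol-treated cells, and 844 over and 1222 under in untreated ones. These counts include many genes with few reads. Among the 7885 genes averaging 1000 counts or more, a limit that all 10 genes meet, 0.685% were over and 0.19% under in both. The median log2 fold change of the 10 genes was -0.10 under kahweol and -0.04 in untreated cells, beside 0.00 and -0.01 for all genes. The 2 comparisons share no library, but both were known when the genes were chosen.

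In the comparison of kahweol with untreated cells, none of the 10 genes was over a fold of 1.3, and 7 were under 0.7 in both siRNA backgrounds. These were TPM1, TPM2, TPM4, MYLK, MYL9, MYH9 and MYH10. Of all genes, 28.4% were over and 24.2% under in siCTGF cells, and 28.1% were over and 26.3% under in siControl cells. The limits are not symmetric on the log2 scale (0.38 and -0.51). At 1.5-fold either way, 3298 genes were over and 3591 under in siCTGF cells, and 3146 over and 3949 under in siControl cells, with the same 7 of the 10 genes under. In both together 20.7% were over and 18.2% under, and 12.8% of the genes averaging 1000 counts or more were under in both. All 10 log2 fold changes were negative in each background. Their median was -0.79 in siCTGF cells and -0.77 in siControl cells, beside 0.00 and -0.02 for all genes. The order of the genes was much alike in both, with MYLK and TPM1 lowest and TPM3 nearest to 0.

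**Figure D2:**
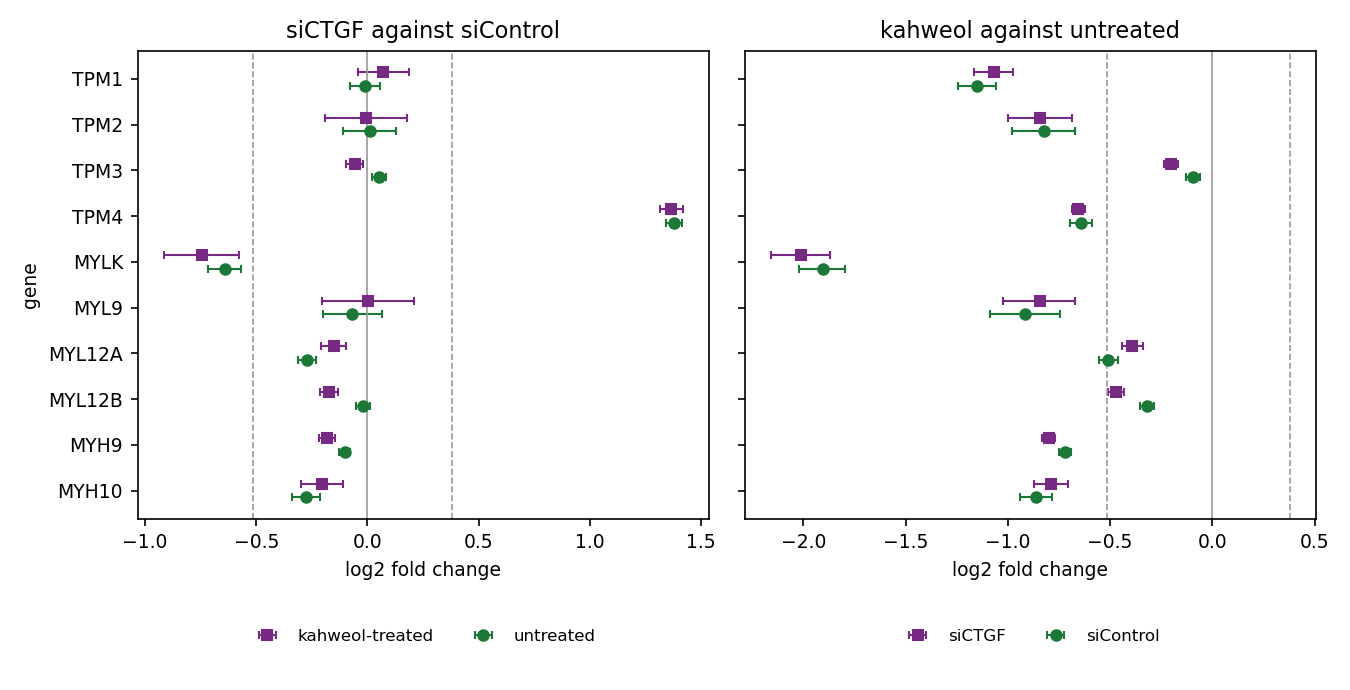
Log2 fold change of each gene with siCTGF (left) and with kahweol (right). Points are the difference between 2 single libraries, bars are 95% counting intervals, dashed lines mark folds of 1.3 and 0.7. On the left only TPM4 (1.37 and 1.38) and MYLK (-0.75 and -0.64) lie beyond a dashed line, and on the right every point is below 0.

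The size of the kahweol values depended on the scaling. When CPM were scaled by total counts alone, the median of all genes with kahweol was -0.15 in siCTGF cells and -0.15 in siControl cells, beside 0.00 and -0.02 with TMM. Then 9 of the 10 genes were under 0.7 in siCTGF cells and 8 in siControl cells. Under each library-wide scaling and unit tried, all 10 genes stayed below 0. Commonly used reference genes went opposite ways with kahweol. GAPDH was at 0.40 in siCTGF cells and 0.41 in siControl cells on the log2 scale, and ACTB at -0.82 in siCTGF cells and -0.76 in siControl cells. Relative to ACTB, a comparison added after seeing the data, MYLK remained lower, at -1.19 in siCTGF cells and -1.15 in siControl cells, and so did TPM1, at -0.25 in siCTGF cells and -0.39 in siControl cells. TPM2, MYL9, MYH9 and MYH10 were between -0.16 and 0.04. TPM3 turned positive and past the fold of 1.3, at 0.62 in siCTGF cells and 0.66 in siControl cells. MYL12A (0.43 and 0.25), MYL12B (0.35 and 0.44) and TPM4 (0.17 and 0.11) were positive as well. The sign for these 4 genes thus held against the library and not against ACTB. The same went for MYH9 by a small margin, at 0.02 in siCTGF cells and 0.04 in siControl cells. MYH10 was at 0.03 in siCTGF cells and -0.11 in siControl cells.

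Shares within a family avoid the scaling between libraries. They were taken from TPM, the abundance that StringTie corrects for transcript length, so that genes can be compared within a library. TPM4 made up 50.0% of tropomyosin TPM in siCTGF+kahweol, 53.2% in siCTGF, 27.3% in siControl+kahweol and 31.0% in siControl. TPM3 made up 36.2% in siCTGF+kahweol, 28.7% in siCTGF, 54.5% in siControl+kahweol and 41.0% in siControl. The leading tropomyosin transcript was thus TPM4 in both siCTGF libraries and TPM3 in both siControl libraries. TPM1 took 8.93% in siCTGF+kahweol, 12.3% in siCTGF, 11.3% in siControl+kahweol and 19.4% in siControl. TPM2 had the smallest share, at 4.90% in siCTGF+kahweol, 5.85% in siCTGF, 6.87% in siControl+kahweol and 8.68% in siControl.

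In the myosin families the main genes kept close shares. MYL12B made up 65.0 to 68.7% of regulatory light chain TPM in the 4 libraries and MYL12A 29.9 to 33.7%. The small share of MYL9 was lower with kahweol, at 1.04% in siCTGF+kahweol, 1.36% in siCTGF, 0.922% in siControl+kahweol and 1.33% in siControl. MYH9 made up 85.1 to 86.4% of the TPM of MYH9, MYH10 and MYH14, and MYH10 12.6 to 14.0%. The ratio of MYH9 to MYH10 was 6.81 in siCTGF+kahweol, 6.86 in siCTGF, 6.72 in siControl+kahweol and 6.07 in siControl. The balance of kinase to substrate transcript did move. Per 1000 TPM of regulatory light chain, MYLK had 3.57 TPM in siCTGF+kahweol, 10.2 in siCTGF, 5.14 in siControl+kahweol and 14.8 in siControl.

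**Figure D3:**
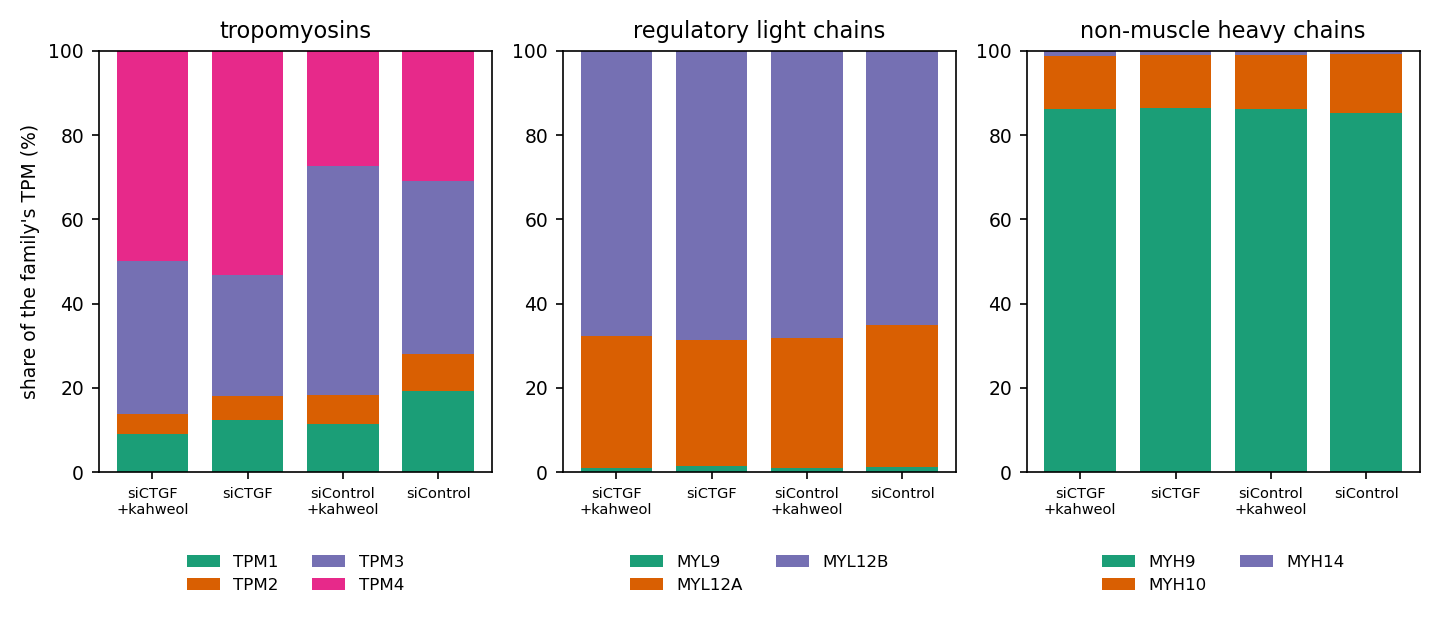
Share of each gene in the summed TPM of its family, in percent, for each library (1 per condition). In the tropomyosins TPM4 takes 50.0 and 53.2% in the siCTGF libraries and 27.3 and 31.0% in the siControl ones. In the light and heavy chains the shares of MYL12A, MYL12B, MYH9 and MYH10 are nearly alike in the 4 bars.

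Set against the actin that tropomyosins coat, the summed tropomyosin was higher with siCTGF and with kahweol, though not every gene was. The sum of ACTB and ACTG1 was 2270 TPM in siCTGF+kahweol, 4912 TPM in siCTGF, 2281 TPM in siControl+kahweol and 4667 TPM in siControl. Per 1000 TPM of actin there were 295 TPM of tropomyosin in siCTGF+kahweol, 242 in siCTGF, 222 in siControl+kahweol and 175 in siControl. Within that sum TPM4 had 147 TPM in siCTGF+kahweol, 129 in siCTGF, 60.6 in siControl+kahweol and 54.2 in siControl. The siCTGF difference thus lay mostly in TPM4 and the kahweol difference mostly in TPM3, at 107 in siCTGF+kahweol, 69.6 in siCTGF, 121 in siControl+kahweol and 71.8 in siControl. TPM1 went the other way with kahweol, at 26.3 in siCTGF+kahweol, 29.7 in siCTGF, 25.2 in siControl+kahweol and 33.9 in siControl. TPM2 was nearly level, at 14.2 to 15.3 TPM per 1000 TPM of actin. Non-muscle heavy chains were at 57.3 in siCTGF+kahweol, 55.2 in siCTGF, 68.8 in siControl+kahweol and 65.8 in siControl, so they followed actin with kahweol and were lower with siCTGF.

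Tropomyosin genes make many isoforms by alternative promoters and exons, which a gene-level table does not show. The ratio of count to FPKM, which scales with the mean length of the transcripts the authors' assembly assigned to a gene, gives a coarse check. Relative to MYH9 it differed between libraries by up to 5.82% for TPM1, 3.88% for MYLK, 3.2% for TPM3 and 2.51% for TPM2, and by 0.27% for TPM4. The mean transcript length of TPM4 was thus nearly the same in siCTGF and siControl cells.

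Other genes that set the activity of the light chains were counted from 5 lists. The shares of all genes to set beside the counts are 20.7% over and 18.2% under in both kahweol comparisons, and 3.25% over and 2.24% under in both siCTGF comparisons. Of 15 light chain kinases and calmodulin genes, 2 were over and 1 under in both kahweol comparisons, and none was over and 1 under in both siCTGF comparisons. ROCK1, a kinase that phosphorylates the light chain and inhibits its phosphatase, was at 179 CPM in siCTGF+kahweol, 105 CPM in siCTGF, 184 CPM in siControl+kahweol and 114 CPM in siControl. It was therefore higher with kahweol, by 0.78 in siCTGF cells and 0.69 in siControl cells on the log2 scale, where MYLK was lower. ROCK2 was not, at -0.17 in siCTGF cells and -0.01 in siControl cells. CDC42BPG, a kinase of the MRCK family, was under, at -0.57 in siCTGF cells and -1.18 in siControl cells, with no more than 4.83 CPM. The other gene over was MYLK2, the skeletal muscle kinase, at 0.34 to 1.95 CPM and named here after its values were seen. The gene under in both siCTGF comparisons was MYLK3, likewise named afterwards, at 0.36 to 1.13 CPM.

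Of the 9 genes of the myosin phosphatase and its inhibitors, 7 were kept. With kahweol 1 was over and 2 were under in both comparisons, and with siCTGF none was over and 1 was under, beside 20.7% over and 18.2% under of all genes with kahweol and 3.25% and 2.24% with siCTGF. PPP1R12A, the subunit that targets the phosphatase to myosin, was over, at 0.50 in siCTGF cells and 0.45 in siControl cells. MPRIP, which tethers the phosphatase to actin, was under, at -0.73 in siCTGF cells and -0.74 in siControl cells. PPP1R14B, a phosphatase inhibitor, was under at -0.75 in siCTGF cells and -0.54 in siControl cells. The catalytic subunit PPP1CB stayed at 0.06 and 0.05. The one under in both siCTGF comparisons was PPP1R14C, another inhibitor, at -0.84 under kahweol and -0.60 in untreated cells and at 7.76 CPM or less.

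Of 16 genes whose products bind the thin filament together with tropomyosin or form it, 14 were kept. With kahweol 7 were under and 1 over in both comparisons, the last being CNN1 at 0.65 CPM or less, beside 18.2% of all genes under and 20.7% over. ACTB and ACTG1, the cytoplasmic actins, were under, as were the actin crosslinker ACTN4 and TMOD2, which caps the tropomyosin-coated pointed end. CNN2, CALD1 and the thinly counted TMOD1 made up the 7. ACTG1 was at -0.88 in siCTGF cells and -0.84 in siControl cells, close to the values of MYH9 and TPM2. With siCTGF 1 was over and 2 were under in both. The one over was TAGLN, an actin-bundling protein of smooth muscle and stress fibres, at 0.50 under kahweol and 0.41 in untreated cells, and those under were CNN1 and TMOD1, both at 1.73 CPM or less. The median of the list with kahweol was -0.68 in siCTGF cells and -0.50 in siControl cells. For other chains of myosin II it was -0.51 in siCTGF cells and -0.67 in siControl cells. Of the 5 genes of that list 4 were kept, and MYL5 alone was under in both kahweol comparisons, at 4.13 CPM or less. None of them passed in both siCTGF comparisons.

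Serum response factor (SRF) with its coactivators of the MRTF family drives many actin and myosin genes. Of the 6 genes of this list 5 were kept. None was over and 1 under in both kahweol comparisons, and none passed in both siCTGF comparisons. SRF was at 80.4 CPM in siCTGF+kahweol, 58.5 CPM in siCTGF, 66.7 CPM in siControl+kahweol and 52.9 CPM in siControl. MRTFB, the one under, had log2 fold changes with kahweol of -1.10 in siCTGF cells and -0.60 in siControl cells, and MRTFA of 0.37 and 0.13.

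**Figure D4:**
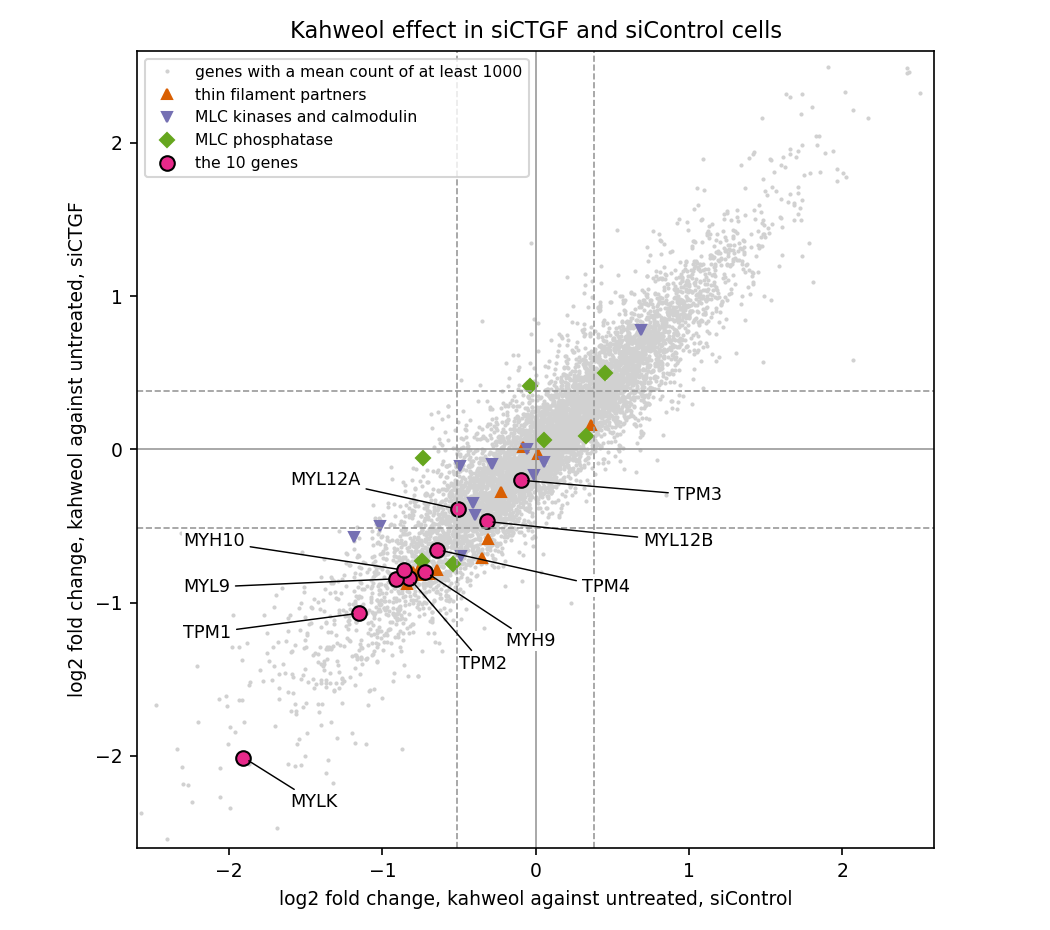
Log2 fold change with kahweol in siCTGF cells (y) against that in siControl cells (x) for the 10 genes, for genes of 3 regulator lists averaging 100 counts or more, and in gray for the 7885 genes averaging 1000 counts or more, of which 13 lie outside the axes. Dashed lines mark folds of 1.3 and 0.7. All 10 genes are below 0 on both axes, with MYLK farthest out.

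Promoters were read for motifs of SRF and of the TEAD factors, partners of YAP and TAZ. RefSeq (GRCh38.p14) promoters of 300 bases were on hand for 9 of the 10 genes. The CArG box, to which SRF binds, was in the 1 promoter on hand for MYLK and in 1 of the 3 for TPM4. That MYLK promoter was not matched to the 7 annotated MYLK transcripts, so it may not be where the kinase transcript starts. Its matches are therefore not assigned to the kinase transcript or to the MYLK counts. Both genes were past a threshold with siCTGF and under 0.7 with kahweol, and whether the box has a part in this was not tested. The matches are shown on the coding strand with the box in capitals.
MYLK, chr3:123620623-123620652, minus strand: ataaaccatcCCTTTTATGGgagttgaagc
TPM4, chr19:16067355-16067384, plus strand: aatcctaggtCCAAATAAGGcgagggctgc
The box began 94 bases before the start site of that MYLK promoter and 173 bases before that of the TPM4 promoter. It was found in 2 of the 9 genes and 2 of their 17 promoters, beside 1.57% of the kept genes with a promoter and 1.29% of all promoters. Enrichment was not tested. The TEAD motif GGAATG, read on both strands, was in the same MYLK promoter and in promoters of MYL12A, MYH9 and MYH10. It was in 15.2% of the kept genes and 14% of all promoters. A match describes these letters in this window only, and the 2 CArG genes had opposite signs with siCTGF and the same sign with kahweol.

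The genes most like TPM4 and MYLK were sought among 11747 protein-coding genes by the distance between centred log2 CPM over the 4 libraries. The 3 nearest to TPM4 were PODXL2 (0.46), SCG2 (0.47) and C19orf33 (0.48), all at 16.1 CPM or less. PODXL2 was at 11.9 CPM in siCTGF+kahweol, 16.1 CPM in siCTGF, 5.70 CPM in siControl+kahweol and 9.01 CPM in siControl. Those nearest to MYLK were CRACR2B (0.17), PRLR (0.18) and PNPLA3 (0.25), at 9.14 CPM or less. PRLR, the prolactin receptor gene, was at 1.40 CPM in siCTGF+kahweol, 5.03 CPM in siCTGF, 2.41 CPM in siControl+kahweol and 9.14 CPM in siControl. None of the nearest genes was another of the 10.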

How the data were processed

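The authors' submission holds RNA-Seq of 4 MDA-MB-231 libraries (rRNA-depleted, stranded). Per the submitters' processing notes, FastQC 0.11.7, Trimmomatic 0.38, HISAT2 2.1.0, Bowtie2 2.3.4.1 and StringTie 2.1.3b were used with GRCh37.p13. The deposited counts are estimated reads per gene, as whole numbers without normalization. The authors made the FPKM, the TPM and the coverage in StringTie. The coverage signal was used only to check the counts, which fit single reads, so intervals take 2 reads as 1 fragment.

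TMM factors came from edgeR 4.0.16 under R 4.3.3. Genes averaging 10 counts or more stayed in, and CPM were put on a log2 scale after adding a prior count of 2. With 1 library per condition no test between conditions was run. Fold changes are between single libraries, with exact Clopper-Pearson 95% counting intervals that leave out the spread between cultures. The fold limits 1.3 and 0.7 follow the study, which also set a p-value limit for its calls. That second limit was not applied here, so the counts are not comparable with those of the study. The fold and interval steps were tested on simulated data. Python 3.11.15 was used with pandas 2.3.3, numpy 2.4.6, scipy 1.17.1 and matplotlib 3.10.9. DESeq2 1.42.0 gave the size factors of 1 alternative.

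The genes and lists were chosen with earlier results of these data known. Named were all 10 genes, CCN2, ACTB and GAPDH, the 3 genes nearest to TPM4 and to MYLK, and from each regulator list at most 4 genes per effect past the same threshold in both comparisons (averaging 100 counts or more, taken in order of the smaller of their absolute log2 values). Other names (ROCK2, MYLK2, MYLK3, PPP1CB, CNN1, CNN2, CALD1, TMOD1, SRF, MRTFA) were added with values in view. Alternatives were other scalings, units, prior counts, filters and fold limits.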

Additional observations from a re-analysis of the deposited data

How the results depend on the processing

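No paired analysis was possible because each condition has 1 library, and for the same reason no replicate could be left out. Of 360 log2 fold changes of the 10 genes under other scalings, units and prior counts, 260 stayed within the counting interval, 100 moved outside it and none of those past a fold limit changed sign. All 180 kahweol values stayed below 0. At folds over 2 or under 0.5, 2 of the 10 genes remained in each kahweol comparison (TPM1 and MYLK) and 1 in each siCTGF comparison (TPM4). On log2(FPKM + 1) centred on the median of all genes, an alternative added after seeing the data, 1 gene (TPM4) passed with siCTGF under kahweol, and MYLK did not. The FPKM of MYLK were small there, and adding 1 shrinks the fold between such values. Other units put MYL12A or MYL12B under 0.7 as well, with up to 9 genes under. On log2(TPM + 1) the median of all genes with kahweol was -0.18 in siCTGF cells and -0.17 in siControl cells, beside 0.00 and -0.02 with TMM. The share of genes over among all those past a limit was then 33.8% in siCTGF cells and 33.9% in siControl cells, beside 54% and 51.7% with TMM, and with total counts it was 41.9% and 41%. With log2(FPKM + 1) it was 41.3% with kahweol in siCTGF cells, and 68.1% with siCTGF in untreated cells, beside 51.7%. Centring log2(TPM + 1) gave 79.7% with siCTGF under kahweol and 64.9% in untreated cells, and centring log2(FPKM + 1) gave 82.6% and 68.8%, beside 65.3% and 51.7%. Counts of all genes with siCTGF depended most on the filter. Without kahweol, 1598 were over a fold of 1.3 and 1493 under 0.7, against 620 and 419 at a mean count of at least 100, 234 and 55 at 1000 (added after seeing the data), and 3859 and 3750 without a filter. Under kahweol they were 2441 and 1299, against 1011 and 398, 306 and 62, and 5339 and 3071. Without replicates, the depth limits counting error only.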
